A study of Bos taurus with 16 samples.

Results

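Of the 27607 bovine genes in the files, 4 genes of inhibitory signalling are described here in the prefrontal cortex (PFC) of bulls: GAD2, GABRA3, CNR1 and CRHBP. They were chosen by their place in the study's list of genes differing between the breeds, where all 4 stand as down-regulated, so the difference between Lidia and Wagyu is given as a description with no test. A symbol was known only for genes of that list, of which 1159 of 1197 entries could be paired with a gene by position. The RNA came from 8 Lidia bulls, a breed selected for aggressive behaviour and labelled aggressive, and 8 Wagyu bulls, a docile beef breed labelled non-aggressive. All were males of 3 years, except 1 Lidia bull of 4 years, Montealto bull 4. Per the study's sample table, 4 Lidia bulls came from the farm La Quinta, 4 from the farm Montealto and all Wagyu from a single other farm. The Lidia bulls of a farm are numbered here from 1 to 4 in the order of their title numbers, and the Wagyu bulls keep the numbers of their titles. The Lidia bulls were sampled at the bullring after the fight and the Wagyu at a slaughterhouse, so that breed cannot be told apart from farm, diet, handling and the events before death.

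Inhibitory interneurons are the cells of the cortex that release GABA, the main inhibitory transmitter of the adult brain. They fall into classes known by their peptides and receptors, among them somatostatin cells, parvalbumin cells and cells with VIP or reelin. GAD2 encodes GAD65, the glutamate decarboxylase that makes GABA at the nerve ending. GABRA3 encodes the alpha-3 subunit of the GABA-A receptor, the chloride channel that GABA opens. CNR1 encodes the cannabinoid receptor CB1, which lowers transmitter release and is abundant on the endings of a class of cortical interneurons. CRHBP encodes a secreted protein that binds the stress peptide corticotropin-releasing hormone, and in the cortex of rodents it marks mostly somatostatin cells.

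On the ARS-UCD 1.2 assembly, GAD2 (ENSBTAG00000008056) lies on chromosome 13 from 26665423 to 26728690 on the plus strand, with 16 exons of 3547 bases in all. GABRA3 (ENSBTAG00000006691) lies on the minus strand of chromosome X from 34602113 to 34842545, with 10 exons of 1704 bases. CNR1 (ENSBTAG00000054523) lies on the plus strand of chromosome 9 from 61744572 to 61774118, with 2 exons of 5616 bases. CRHBP (ENSBTAG00000020202) lies on the plus strand of chromosome 10 from 8104261 to 8118309, with 7 exons of 1582 bases. Each of the 4 has 1 transcript in the files, so no comparison of isoforms was possible. The span of GABRA3 holds 3 short genes on the same strand, all listed at 0 in every animal, and GAD2, CNR1 and CRHBP overlap no other gene.

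Levels are given as rescaled FPKM, that is, fragments per kilobase of transcript relative to the mapped total of the animal, after the 16 animals were brought to a common scale by the median of ratios. All 4 genes passed the filter on low values, a mean of at least 0.1. The libraries of 2 animals needed the largest corrections, Wagyu bull 5 with a factor of 2.19 and La Quinta bull 4 with 1.77, against 0.612 to 1.12 in the other animals. They were also the shallowest, at about 7.67 M and 13.7 M fragments of a range up to 37.0 M (M, 10 to the power 6). Montealto bull 2 stood apart in another way: it had the lowest factor, and mitochondrial genes took 38.4% of its summed FPKM against 22.2% to 33.2% in the other Lidia bulls. The highest share, 39.3%, was that of Wagyu bull 5, and the other Wagyu bulls were at 17.8% to 27.5%. Excitatory cortical markers were looked at beside the tissue label, and 4 of 8 could be named, all from the study's list. No threshold was set, so their levels are a description and not a check of the label. SLC17A7, the vesicular glutamate transporter of cortical excitatory cells, was at 97.5 to 147 rescaled FPKM in Lidia and 111 to 183 in Wagyu.

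The down-regulation was clearest for CRHBP and CNR1, and the breeds overlapped more for GAD2 and GABRA3. CRHBP was lower in the Lidia cohort by 46.4% on the log scale and CNR1 by 34.4%. The corresponding values were 30.5% for GAD2 and 30.1% for GABRA3, with a wide spread between animals. All 4 differences pointed the same way, which the choice of the genes had fixed.

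CRHBP ranged from 9.60 through a median of 11.1 to 12.6 rescaled FPKM in Wagyu. In Lidia it ranged from 4.00 through a median of 5.33 to 9.22. On this scale the breeds did not overlap, and the Wagyu bulls lay close together, with a mean of 11.0 ± 1.06 (SD, n = 8) against 6.10 ± 2.03 (SD, n = 8) in Lidia. The gap from 9.22 to 9.60 was small beside the Cufflinks 95% interval of Montealto bull 4, 7.98% wide on either side. As deposited the breeds overlapped, with Lidia up to 8.91 and Wagyu from 6.60 FPKM. There, 5 of 8 Lidia bulls lay below every Wagyu bull. The highest Lidia bulls were Montealto bull 4 at 9.22 and Montealto bull 2 at 9.05, and the next was La Quinta bull 1 at 6.59. On the log2 scale the difference, Lidia minus Wagyu, was −0.90 (SE 0.16, 95% confidence interval −1.23 to −0.57). Of the 16587 genes tested, 0.32% had all Lidia values below all Wagyu values.

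CNR1 ranged from 4.57 through a median of 5.98 to 9.02 rescaled FPKM in Wagyu and from 2.91 through a median of 4.10 to 5.31 in Lidia. Here 6 of 8 Lidia bulls lay below every Wagyu bull, and Wagyu bull 1 was the only Wagyu within the Lidia range. As deposited, 1 of 8 Lidia bulls lay below every Wagyu bull. The means were 6.33 ± 1.34 (SD, n = 8) and 4.12 ± 0.812 (SD, n = 8). The log2 difference was −0.61 (SE 0.14, 95% confidence interval −0.90 to −0.32).

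GAD2 ranged from 1.73 through a median of 5.34 to 8.84 rescaled FPKM in Wagyu and from 1.75 through a median of 3.98 to 6.39 in Lidia. The Lidia range lay inside that of Wagyu, and 3 Wagyu bulls exceeded every Lidia bull. The lowest animal of each breed, Wagyu bull 1 at 1.73 and Montealto bull 2 at 1.75, had nearly the same level. Means were 5.83 ± 2.44 (SD, n = 8) in Wagyu and 3.84 ± 1.34 (SD, n = 8) in Lidia, with a log2 difference of −0.53 (SE 0.30, 95% confidence interval −1.16 to 0.10). Without these 2 animals, a choice made after seeing the data, the difference was −0.60 (SE 0.19, 95% confidence interval −1.02 to −0.19).

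GABRA3 ranged from 18.1 through a median of 25.3 to 36.2 rescaled FPKM in Wagyu and from 4.74 through a median of 21.9 to 23.7 in Lidia. The low end of Lidia was Montealto bull 2, at 4.74, followed by La Quinta bull 4 at 13.2, and the other 6 lay between 19.2 and 23.7 within the range of Wagyu. Means were 25.2 ± 6.48 (SD, n = 8) in Wagyu and 18.8 ± 6.64 (SD, n = 8) in Lidia. The log2 difference was −0.52 (SE 0.28, 95% confidence interval −1.12 to 0.09), and it was −0.25 when Montealto bull 2 was left out.

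**Figure D1:**
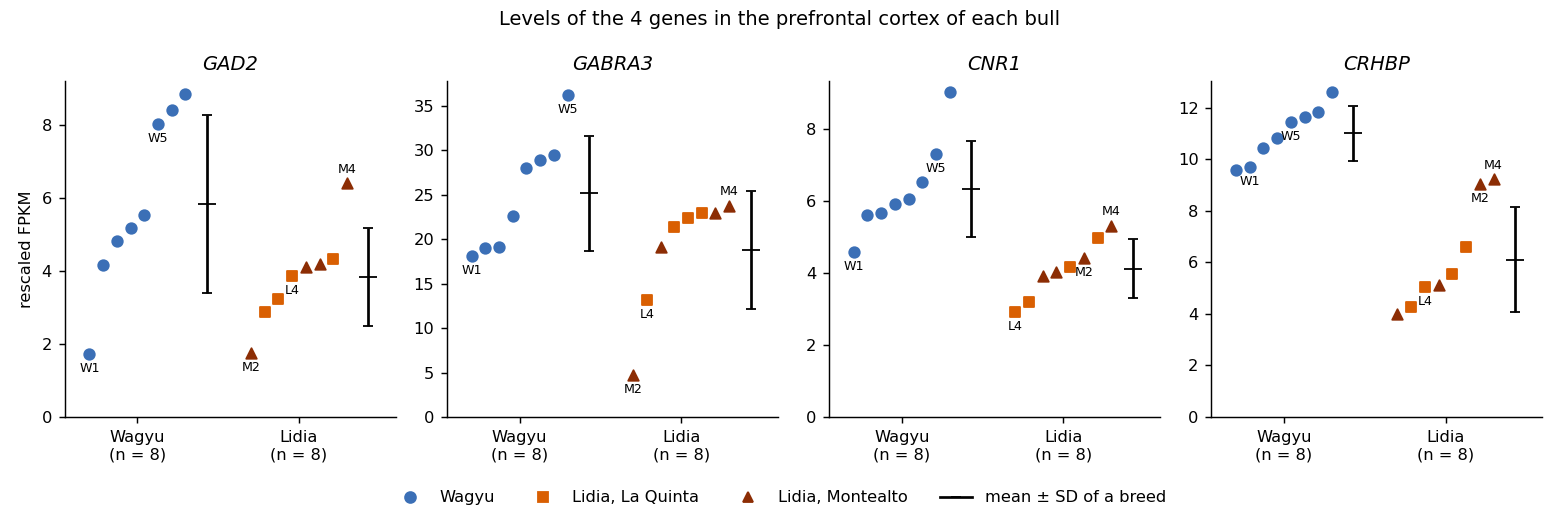
Each point is 1 bull; the vertical axis is rescaled FPKM from 0, with one panel per gene, animals of a breed sorted by level, and bars for the mean ± SD of each breed (n = 8), and with letters at Wagyu bulls 1 and 5 (W), La Quinta bull 4 (L) and Montealto bulls 2 and 4 (M). CRHBP leaves a gap between the Lidia bulls, up to 9.22, and the Wagyu bulls, from 9.60, while the breeds overlap for GAD2 from 1.75 to 6.39. On the FPKM as deposited, the breeds overlap for CRHBP as well.

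In the fit across all genes (limma, called at a Benjamini-Hochberg adjusted p up to 0.05 with a log2 difference of 0.1 or more in size), 1.65% of genes were called lower in Lidia. Of the 4 genes, CNR1 and CRHBP were called and GAD2 and GABRA3 were not, and nothing is read from this count because the same contrast chose them. Both calls were kept when any single bull was left out. CNR1 was not called without Wagyu bull 5 and La Quinta bull 4, where its log2 difference was −0.51, nor on the FPKM as deposited, where no gene of the 16614 tested was called and 1022 had an unadjusted p under 0.05.

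Each Lidia farm was set against the same 8 Wagyu bulls, so the following values share their controls. CRHBP differed by −1.04 (SE 0.11) on the log2 scale for La Quinta and by −0.76 (SE 0.20) for Montealto. CNR1 differed by −0.72 (SE 0.17) for La Quinta and by −0.49 (SE 0.16) for Montealto. GAD2 was at −0.56 (SE 0.35) for La Quinta and −0.49 (SE 0.41) for Montealto. GABRA3 was at −0.32 (SE 0.21) for La Quinta and −0.71 (SE 0.37) for Montealto, which includes Montealto bull 2. With 4 Lidia bulls, only CRHBP in La Quinta was called.

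**Figure D2:**
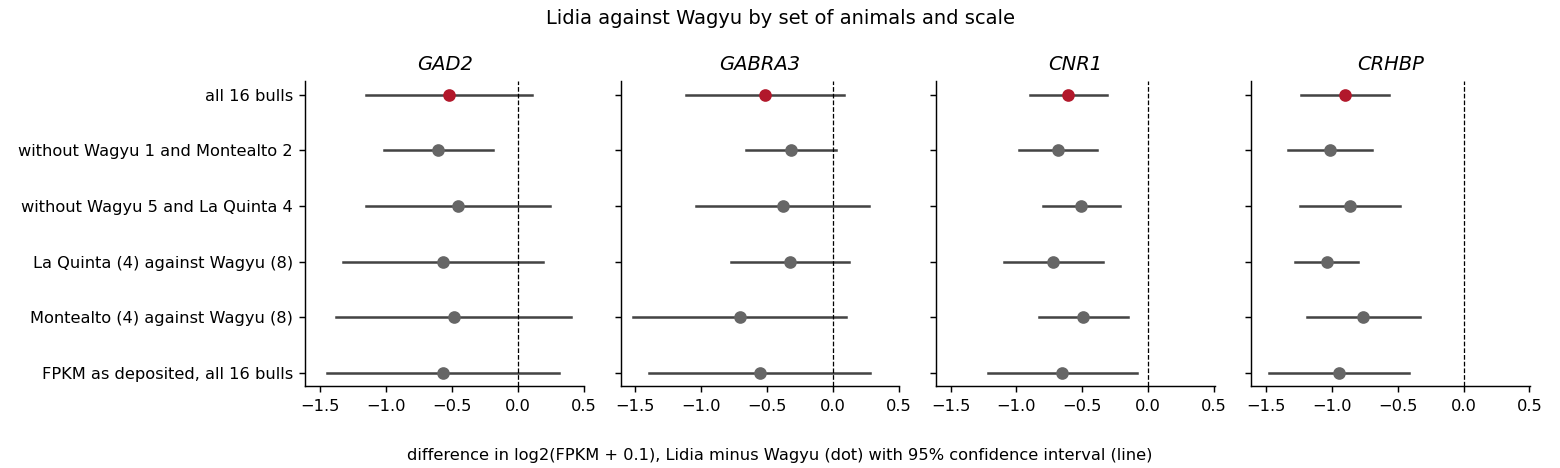
Difference in log2(FPKM + 0.1), Lidia minus Wagyu, for each gene (panels) and each set of animals or scale (rows); dots are estimates, lines 95% confidence intervals, and the dashed line marks 0. For CRHBP and CNR1 every interval lies below 0, and for GABRA3 none does in these 6 sets. For GAD2 the interval does so only without Wagyu bull 1 and Montealto bull 2, a choice made after seeing the data. GAD2 was not called in that set. The same contrast chose the genes, so the intervals are a description and not a test.

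The farms of the Lidia cohort were then compared with each other, a contrast that had no part in choosing the genes. It asks whether the levels depended on the herd within a breed. CNR1 was at 3.81 ± 0.945 (SD, n = 4) rescaled FPKM in La Quinta and 4.42 ± 0.633 (SD, n = 4) in Montealto. CRHBP was at 5.35 ± 0.98 (SD, n = 4) and 6.85 ± 2.68 (SD, n = 4), GAD2 at 3.58 ± 0.64 (SD, n = 4) and 4.11 ± 1.90 (SD, n = 4), and GABRA3 at 20.0 ± 4.60 (SD, n = 4) and 17.7 ± 8.84 (SD, n = 4), in the same order. The ranges of the farms overlapped for every gene.

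No difference between farms passed the test. The log2 difference, La Quinta minus Montealto, was −0.23 for CNR1 (95% confidence interval −0.66 to 0.20, limma adjusted p = 0.948, exact permutation p = 0.286). For CRHBP it was −0.28 (95% confidence interval −0.93 to 0.37, limma adjusted p = 0.948, exact permutation p = 0.4). For GAD2 it was −0.08 (95% confidence interval −0.87 to 0.71, limma adjusted p = 0.983, exact permutation p = 0.886). For GABRA3 it was 0.38 (95% confidence interval −0.75 to 1.51, limma adjusted p = 0.948, exact permutation p = 0.714), and −0.16 without Montealto bull 2. The intervals leave room for differences as large as those between the breeds. With 4 against 4 animals the smallest two-sided permutation p is 0.0286 over 70 splits, and 0.0422% of the 16585 genes tested were called between farms.

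FPKM is a level per length of transcript, so the genes can be ordered. GABRA3 was the highest of the 4 in all 8 Wagyu and 7 of 8 Lidia bulls, with a median ratio to GAD2 of 4.80 in Wagyu and 4.81 in Lidia. CRHBP was second in all 8 Wagyu bulls but in only 5 of 8 Lidia bulls. Among the other Lidia bulls, GAD2 exceeded CRHBP in Montealto bull 1, and both GAD2 and CNR1 exceeded it in La Quinta bull 3, where CRHBP was the lowest of the 4. GAD2 and CNR1 had no stable order, GAD2 being higher in 2 of 8 Wagyu and 5 of 8 Lidia bulls. The exception at the top was Montealto bull 2, where CRHBP at 9.05 exceeded GABRA3 at 4.74. The Cufflinks 95% interval of a single value was at most 16.8% wide on either side, reached for GAD2 in Montealto bull 2, from about 76.1 fragments.

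Variation of the 4 genes as a block was not detected among animals of a breed, which with 8 animals in each does not show that it was absent. Across the 6 pairs of genes and both breeds, and each gene against SLC17A7 and against the summed meningeal fibroblast markers, 28 relations were computed. None passed an adjusted p of 0.05 by an exact permutation test over all pairings of the 8 animals (0 for Pearson's r and 0 for Spearman's rho). At an unadjusted p of at most 0.05 there were 3 by Pearson's r and 2 by Spearman's rho. Of the 6 pairs, 3 had the same sign of r in both breeds.

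GAD2 and GABRA3, the enzyme that makes GABA and a receptor subunit for it, had r = 0.76 in Lidia (n = 8, exact permutation p = 0.0468, adjusted p = 0.422, Spearman's rho 0.57 with exact p = 0.151 and adjusted p = 0.722). Of the 11959 other genes with a mean of at least 1, 12.7% had a higher r with GAD2 in the same animals. Without Montealto bulls 2 and 4, the animals farthest from the median of GAD2, r was −0.23, but it was 0.80 without Montealto bull 4 alone and 0.12 without Montealto bull 2 alone, so the relation rests on Montealto bull 2. In Wagyu r was 0.48 (n = 8, exact permutation p = 0.224, adjusted p = 0.699, Spearman's rho 0.26 with exact p = 0.536 and adjusted p = 0.722), and it was 0.63 without bulls 1 and 3 but 0.17 without bull 1 alone.

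GAD2 and CNR1 had r = 0.75 in Wagyu (n = 8, exact permutation p = 0.0428, adjusted p = 0.422, Spearman's rho 0.52 with exact p = 0.197 and adjusted p = 0.722). It was 0.75 without bull 3, the highest in GAD2, and 0.55 without bull 1, the lowest. Without both, which narrows the range of GAD2, it was 0.24 and the relation no longer held. In Lidia r was 0.23 (n = 8, exact permutation p = 0.597, adjusted p = 0.701, Spearman's rho 0.38 with exact p = 0.36 and adjusted p = 0.722), and 0.26 without Montealto bulls 2 and 4.

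GAD2 and CRHBP showed the largest dependence on single animals. In Lidia r was −0.25 (n = 8, exact permutation p = 0.564, adjusted p = 0.701, Spearman's rho −0.21 with exact p = 0.619 and adjusted p = 0.722). It was −0.87 without Montealto bulls 2 and 4, −0.95 without Montealto bull 4 alone and 0.36 without Montealto bull 2 alone. The relation without Montealto bull 4 was the only one to pass the adjustment when a single animal was left out (exact permutation adjusted p = 0.0444), against 0.47 to 0.796 for this pair under the other alternatives. On rescaled FPKM, Montealto bull 4, the bull of 4 years, was the highest Lidia bull for GAD2, GABRA3, CNR1 and CRHBP. As deposited it was the highest for none of them. La Quinta bull 4 was then highest for GAD2, CNR1 and CRHBP, and another La Quinta bull for GABRA3.

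**Figure D3:**
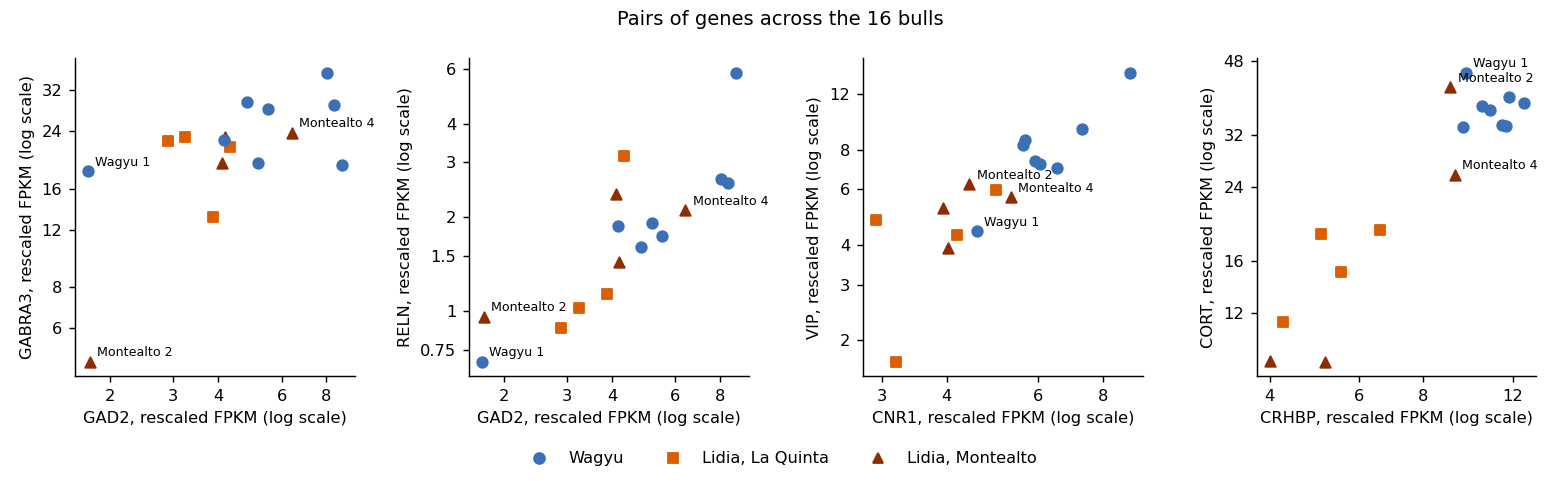
Rescaled FPKM of pairs of genes in the 16 bulls, both axes on a log scale, with symbols for Wagyu and for each Lidia farm. Montealto bull 2 lies at the low corner for GAD2 with GABRA3 (GAD2 at 1.75, GABRA3 at 4.74), near the low corner for GAD2 with RELN (RELN at 0.96), and among the Wagyu bulls for CRHBP with CORT (CORT at 41.5).

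Other genes of these pathways are known here only through the study's list, which was drawn from these animals, so their direction was fixed as well. Of 25 interneuron markers and peptides listed, 8 could be named. Of these, 4 were called lower in Lidia (NPY, CORT, KIT and SYNPR) and none higher, and the median log2 difference of the 8 was −0.66. Over all genes tested 1.65% were called lower and the median was −0.01. All 8 stand as down-regulated in the list, which the same contrast gave, so nothing is read from this comparison. NPY, an inhibitory peptide of interneurons, had a median of 75.1 rescaled FPKM in Wagyu and 38.2 in Lidia. CORT, which encodes cortistatin, a peptide related to somatostatin, had medians of 37.0 and 16.8. In both, 7 of 8 Lidia bulls lay below every Wagyu bull, and the other one was Montealto bull 2, at 89.3 for NPY and 41.5 for CORT. The peptide VIP had medians of 7.85 in Wagyu and 5.03 in Lidia, and the peptide precursor PNOC 2.77 and 0.942. For PNOC, Montealto bull 2 at 4.46 lay above every Wagyu bull. Neither VIP nor PNOC was called, nor were RELN and ADARB2.

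Among the GABA-A receptor subunits, values are given here for GABRA3 alone. Of 9 genes for GABA synthesis, breakdown and transport, 3 could be named. Beside GAD2 these were the transporters SLC6A12 and SLC6A13, which take up GABA and betaine or taurine and are known from the meninges, vessels, liver and kidney rather than from interneurons. SLC6A13 ranged from 0.47 to 3.76 in Wagyu and from 1.5 to 14.2 in Lidia and was called higher (log2 difference 1.98, SE 0.50, with 3.33% of genes called higher). SLC6A12 was not called (log2 difference 0.73, SE 0.23). Of the GABA-B receptors and inhibitory scaffold proteins 0 of 5 could be named, and CNR1 and CRHBP were the only named genes of the 8 endocannabinoid and 6 corticotropin-releasing hormone genes. The remaining genes of these lists, somatostatin and parvalbumin among them, were not analysed here.

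Once the mean of each breed was removed, GAD2 and CNR1 both varied with RELN, KIT and ADARB2 among the interneuron genes. CNR1 also varied with VIP, as did GAD2 in Wagyu but hardly in Lidia. The values are over 16 animals that share libraries and depth. CRHBP varied with other interneuron genes, with r = 0.87 for PNOC, 0.82 for CORT, 0.68 for NPY and 0.64 for SYNPR, a synaptic vesicle protein. Without Wagyu bull 1 and Montealto bull 2 these were 0.90, 0.81, 0.64 and 0.63. They came mainly from the Lidia bulls, where r was 0.92 for PNOC and 0.89 for CORT (n = 8), while in Wagyu, where CRHBP varied little, it was 0.44 for PNOC and −0.17 for CORT (n = 8). These values were not particular to interneuron genes. CRHBP had r = 0.65 with NEUROD2, a transcription factor of excitatory neurons, and 0.60 with TUBB3, a tubulin of neurons in general, which were 0.82 and 0.76 without the same 2 bulls. It had r = −0.90 with LUM, the proteoglycan lumican of fibroblasts, and −0.72 with COL1A1, a chain of type I collagen, which were −0.91 and −0.69 without them. CNR1 had r = 0.73 with RELN, 0.72 with VIP, 0.62 with ADARB2 and 0.57 with KIT, against 0.02 with CORT and 0.05 with PNOC. Without the same 2 bulls these 4 were 0.72, 0.64, 0.61 and 0.51. CNR1 and VIP were related in both breeds, with r = 0.59 in Lidia and 0.89 in Wagyu (n = 8 each). Among the markers of other cells, CNR1 had its largest r in size, 0.65, with FLT1, a VEGF receptor of endothelial cells.

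GAD2 had its highest r among these genes with RELN, 0.82, followed by 0.66 with KIT. Without Wagyu bull 1 and Montealto bull 2 the value for RELN was 0.73 and that for KIT 0.67. GAD2 had r = 0.47 with VIP and 0.48 with ADARB2, which were 0.58 and 0.52 without those 2 animals. By breed, its r with VIP was 0.88 in Wagyu and 0.06 in Lidia. Its negative values, −0.54 for NPY and −0.53 for SYNPR, moved to −0.02 and −0.18. Among the markers of other cells it had r = −0.81 with STMN1, a regulator of microtubules in neurons, −0.75 with ERMN, a protein of oligodendrocytes, and 0.70 with FLT1, which were −0.64, −0.28 and 0.79 without those 2 animals. GABRA3 had r = −0.73 with NPY, which was 0.01 without those 2 animals. Its largest values of r in size among these lists were −0.87 with CLDN5, a tight junction protein of endothelial cells, and −0.85 with MAL, a myelin protein, and these were −0.58 and −0.62 without them. Other values of GABRA3 grew in size. With PPP1R1B, a striatal marker, r was −0.67 and became −0.91, the largest in size, without the same 2 animals. Among the excitatory markers it rose from 0.48 to 0.67 for SLC17A7, from 0.51 to 0.76 for NEUROD6 and from −0.01 to 0.52 for NEUROD2. For NRN1 it fell from 0.38 to 0.21. In Wagyu bull 1 and Montealto bull 2, NPY and CORT were at the top of their breed while GAD2 was at the bottom. These correlations are a description of 16 animals and were not tested.

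**Figure D4:**
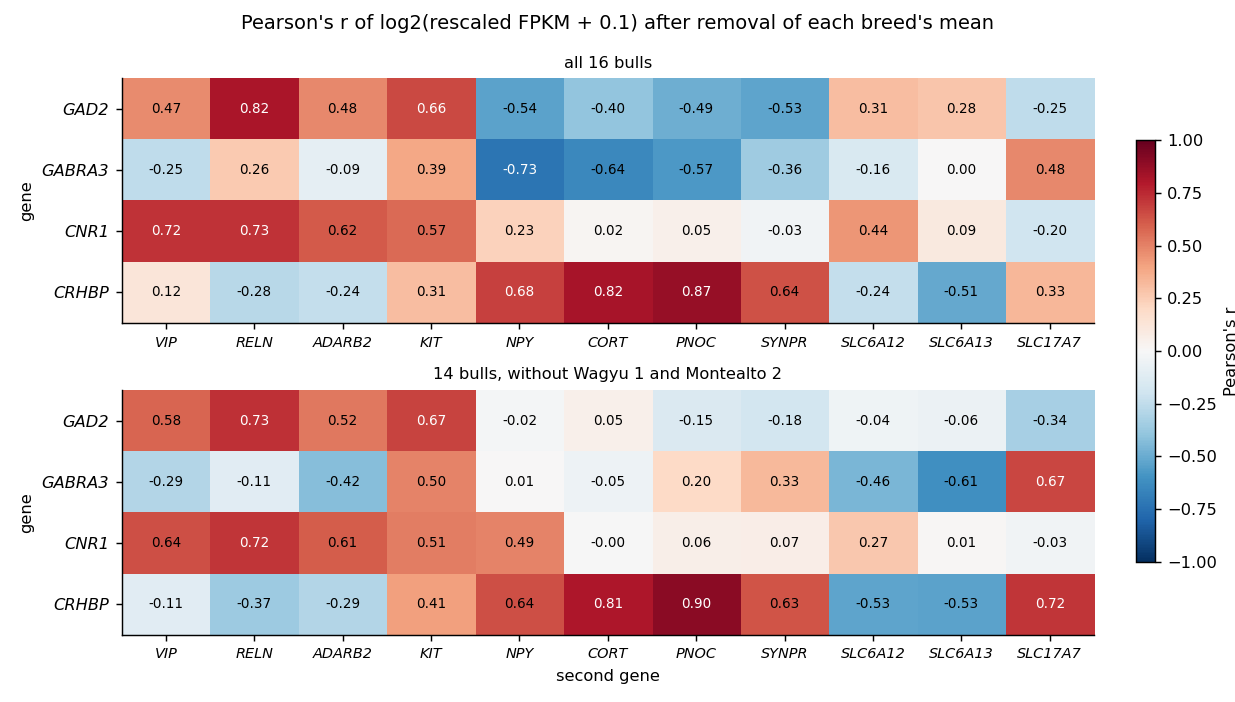
Pearson's r of log2(rescaled FPKM + 0.1), after removal of each breed's mean, between the 4 genes (rows) and 11 named genes (columns), over 16 bulls (top) and 14 bulls (bottom); red is positive and blue negative. CRHBP keeps r of 0.63 to 0.90 with NPY, CORT, PNOC and SYNPR in the lower panel and CNR1 keeps 0.51 to 0.72 with VIP, RELN, ADARB2 and KIT, whereas the r of GABRA3 with NPY goes from −0.73 to 0.01.

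The search for similar patterns over all 11959 other genes with a mean of at least 1 gave some of these names again. Of the 5 genes most like CRHBP, 2 had a symbol, PNOC with the second highest r and CORT with the fifth, and the r of the 5 ran from 0.82 to 0.88. Without Wagyu bull 1 and Montealto bull 2, PNOC had the highest r of all genes and CORT came at rank 18. For CNR1 the gene with the highest r, 0.88, was IGSF3, a member of the immunoglobulin superfamily, which again came out highest, with r = 0.90, without those 2 animals, and the other 4 had no symbol. RELN and VIP were at ranks 39 and 97 for CNR1 without them. The 5 genes most like GAD2 (r of 0.90 to 0.95) and the 5 most like GABRA3 (r of 0.97 to 0.98) had no symbol. As many as 315 genes had r of at least 0.9 with GABRA3, but 20 without the same 2 animals, against 7 and 0 for GAD2. At an r of −0.8 or below there were 910 genes for GABRA3, 417 for GAD2, 12 for CRHBP and 1 for CNR1.

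Markers of other cells also differed between the breeds, but every one that could be named came from the study's list, so the direction was fixed. The counts called bear the same choice, so they are not compared with the 1.65% and 3.33% of all genes called lower and higher. In bulk tissue, fewer cells of a type and less RNA per cell cannot be told apart. The excitatory markers that could be named, 4 of 8, summed to 126 to 196 rescaled FPKM in Lidia and 142 to 243 in Wagyu, with none called. The markers of neurons of any class, 4 of 8, summed to 271 to 418 in Lidia and 348 to 598 in Wagyu, with 1 called lower. The meningeal fibroblast markers, 9 of 10, summed to 13.6 to 100.3 in Lidia and 5.68 to 28.7 in Wagyu, with 5 called higher. Astrocyte markers, 4 of 8, summed to 313 to 469 in Lidia and 183 to 489 in Wagyu with 2 called higher, and oligodendrocyte markers, 7 of 10, to 117 to 375 and 82.2 to 253 with 1 called higher. Endothelial markers, 5 of 6, summed to 30.6 to 110 in Lidia and 15.8 to 35.8 in Wagyu, and microglial markers, 4 of 6, to 29.8 to 51.2 and 14.5 to 35.6, with 2 called higher in each list. The highest Lidia sums for oligodendrocytes, endothelial cells and microglia were all those of Montealto bull 2, and without it they reached 173, 40.5 and 40.8. In Wagyu, bull 1 alone set the upper end for oligodendrocytes, with the next bull at 142, and bull 3 that for astrocytes, with the next at 279. The 2 striatal markers named of 6 summed to 18.4 to 36.1 and 11.8 to 21.4, with 1 called higher. No named marker was at 0 in all animals, and all of them came from the study's list. Their part in the differences of GAD2, GABRA3, CNR1 and CRHBP was not tested.

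Within a breed, the closest of these relations was that of CRHBP with the meningeal sum in Lidia, r = −0.78 (n = 8, exact permutation p = 0.026, adjusted p = 0.422, Spearman's rho −0.81 with exact p = 0.0218 and adjusted p = 0.305), and −0.81 without Montealto bulls 2 and 4. In Wagyu it was −0.34 (n = 8, exact permutation p = 0.399, adjusted p = 0.699, Spearman's rho −0.29 with exact p = 0.501 and adjusted p = 0.722). Montealto bull 1, with the highest meningeal sum at 100.3, had the lowest CRHBP, 4.00, and Montealto bull 2, with the lowest sum at 13.6, had the second highest CRHBP in Lidia. GABRA3 had r = 0.60 with SLC17A7 in Lidia (n = 8, exact permutation p = 0.0654, adjusted p = 0.422, Spearman's rho 0.81 with exact p = 0.0218 and adjusted p = 0.305), and 0.82 without Montealto bull 2 and La Quinta bull 4. None of these relations passed the adjustment over the 28.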

How the data were processed

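Total RNA of the PFC of 16 bulls was sequenced by the authors as paired reads of 100 bases from stranded mRNA libraries. They trimmed with PRINSEQ, mapped with STAR 2.7.3a to ARS-UCD 1.2 with the Ensembl annotation, and estimated transcript abundance with Cufflinks 2.2.1. The deposited FPKM are scaled within an animal only, and the Cuffdiff comparison was not used. A coverage of each transcript was deposited as well. Transcript values were added up per gene and rescaled by median of ratios. Genes with a mean of at least 0.1 entered a limma fit (version 3.58.1, R 4.3.3) of log2(FPKM + 0.1) (variance trend, two-sided, Benjamini-Hochberg over all genes), and correlations were computed in Python 3.11.15 with scipy 1.17.1. Fold changes on this scale understate those of low genes. Coverage over FPKM, with fragments taken as 200 bases, put the depth at 7.67 M to 37.0 M fragments (M, 10 to the power 6), and read counts were not used here. The limma fit was tested on simulated data first.

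The 4 genes and the gene lists were chosen with earlier results of these data known. Named genes are the 4, every listed gene with a symbol, and the 5 genes with the highest r to each. Farms came from the study's sample table. A RefSeq table matched 0 identifiers, and no sequence was used here. Alternatives were other scalings, pseudocounts, filters, array weights, each farm alone and animals left out. Some results are not reported here.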

Additional observations from a re-analysis of the deposited data

Results flagged for a closer look

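One value of the 4 genes lay far from the others of its group by Dixon's criterion, which chance meets in about 1 of 20 groups. Each gene was examined in each breed and each Lidia farm, at both ends, so 1 such value can be met by chance. Its gap over the range was 0.841 against a limit of 0.829 (n = 4). GABRA3 in La Quinta bull 4 was at 13.2 rescaled FPKM, below the other 3 bulls of La Quinta, which lay between 21.4 and 23.0. As deposited, its FPKM of 23.3 did not stand apart, and its factor of 1.77 was the largest of the Lidia bulls.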

How the results depend on the processing

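The log2 differences of the 4 genes between breeds kept their sign in all settings tried and moved by less than 1 SD between animals. Leaving out single bulls gave −0.75 to −0.38 for GAD2, −0.58 to −0.25 for GABRA3, −0.67 to −0.53 for CNR1 and −0.99 to −0.82 for CRHBP. GABRA3 was smallest without Montealto bull 2 (−0.25) and with array weights (−0.27). The number of genes called between breeds, 826, was 0 as deposited (limma, 1022 at an unadjusted p under 0.05), 3086 with array weights, 206 without Wagyu bull 5 and La Quinta bull 4, 282 with La Quinta alone and 59 with Montealto alone. It ran from 363 to 1426 when single bulls were left out, the extremes being Wagyu bulls 12 and 3, and moved by over 1.5 times also without Wagyu bulls 5 (450), 6 (409), 7 (479) and 9 (417) and La Quinta bulls 2 (448), 3 (415) and 4 (445) and Montealto bull 1 (416). The cause was not tested.

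Between farms, 7 genes were called, 3 with a pseudocount of 1 and 3 with a mean of at least 1, and 5 to 10 without single bulls. The sign turned as deposited for GAD2 (0.26), CNR1 (0.12) and CRHBP (0.072), a scale on which the median of all genes shifted by 0.32. Without single bulls the difference ran from −0.43 to 0.18 for GAD2, where it turned positive without La Quinta bull 1 or Montealto bull 4, and from −0.16 to 0.60 for GABRA3, where it turned negative without Montealto bull 2. It ran from −0.36 (without La Quinta bull 3) to −0.11 (without La Quinta bull 4) for CNR1, and from −0.50 (without Montealto bull 1) to −0.11 (without Montealto bull 4) for CRHBP, and it moved by over 1.5 times also without Montealto bull 4 for CNR1 (−0.14) and without Montealto bull 2 (−0.12) and La Quinta bull 3 (−0.18) for CRHBP. No farm difference of the 4 genes passed the test in any of these fits.

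Of the 28 relations, 0 passed the adjustment, 10 did as deposited, where the scale of a library moves all its genes together, and 0 to 1 without single bulls. As deposited, r turned to 0.35 for GAD2 and CRHBP in Lidia, 0.15 for GABRA3 and CRHBP in Lidia and 0.90 for CNR1 and CRHBP in Wagyu, the last also to 0.072 with upper-quartile scaling. Without Wagyu bull 1 and Montealto bull 2 (chosen after seeing the data), GAD2 and CRHBP turned to 0.36 in Lidia and −0.59 in Wagyu, GABRA3 and CRHBP to 0.38 in Lidia, and GABRA3 and CNR1 to −0.12 in Wagyu. Without Wagyu bull 5 and La Quinta bull 4, GABRA3 and CNR1 turned to −0.095 in Lidia. Leaving out single bulls gave −0.15 to 0.60 for GAD2 and CNR1, −0.95 to 0.36 for GAD2 and CRHBP, −0.095 to 0.63 for GABRA3 and CNR1 and −0.71 to 0.38 for GABRA3 and CRHBP in Lidia, and −0.59 to 0.50 for GAD2 and CRHBP, −0.12 to 0.84 for GABRA3 and CNR1 and −0.58 to 0.61 for CNR1 and CRHBP in Wagyu. Shares of transcripts could not be compared under any setting, since each gene has 1 transcript.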
